A study of Mus musculus with 15 samples.

Results

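The genes described here are the mouse translation initiation and elongation factors, chosen by name as every entry whose symbol begins with *Eif* or *Eef*. Of 67 such symbols, the 3 *Eif4ebp* genes were left out and no pseudogene was listed, which left 64 genes of the 23699 entries in each table. They were read in 15 RNA-seq libraries from sorted mouse islet cells, made from poly-A selected RNA. Cells carried a red fluorescent protein (RFP) switched on by cre, which the labels take to mark present or former β cells, and were split with aldefluor, a fluorescent aldehyde dehydrogenase substrate, into cells of low (ALDH-) and high (ALDH+) activity. The study compared them to learn how β cells that have begun to fail differ from healthy ones, with and without Foxo.

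Control mice were triple heterozygous for Foxo1, Foxo3 and Foxo4 according to the labels, and Foxo knockouts are labelled as knockouts of all 3 genes. The methods of the study instead describe the Rip-cre controls as carrying intact Foxo alleles and call controls wild-type, so the sources differ on what each knockout minus control value compares, and the files do not settle it. There were 3 control ALDH-, 2 control ALDH+, 5 knockout ALDH- and 5 knockout ALDH+ libraries, all on a mixed 129J and C57BL/6 background. The driver was Rip-cre, active in β cells, in 9 libraries and Pdx-cre, active in pancreatic precursors and so able to label their other descendants, in 6 (control ALDH- replicate 3, control ALDH+ replicate 2, and knockout replicates 4 and 5 of both fractions). The study's methods give an age of 6 months for the Rip-cre mice and islets from several animals per genotype. The sources used here do not say which animals went into which library, so p-values measure the spread between these libraries.

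The values are FPKM, fragment counts scaled by transcript length and library size. Over entries with a usable estimate, the width of their intervals corresponds to between 7490987 and 10057002 fragments per library (median 9280829). That leaves out *Ins1* in every library and *Ins2* in control ALDH- replicates 1 and 2 and knockout ALDH- replicate 2. These numbers are therefore not full library sizes. *Foxo1* was 12.04 to 20.1 FPKM in controls and 0.0925 to 4.24 in knockouts. *Foxo4* was 0 to 1.34 FPKM in controls and at most 0.0669 in knockouts, while *Foxo3* was 12.7 to 23.0 FPKM in controls and 9.78 to 30.6 in knockouts, so its level did not show the labelled loss; whether its reads lay outside the deleted part was not tested. *Aldh1a3* was 0.490 to 4.09 FPKM in ALDH- and 22.1 to 76.9 in ALDH+ libraries. The β-cell marker *Iapp* was at least 33196 FPKM in every library, but *Mafa*, which marks mature β cells, reached only 13.9. The drivers differed in their markers: the glucose transporter *Slc2a2* was 100 to 227 FPKM in Rip-cre and 8.61 to 24.6 in Pdx-cre libraries, *Ucn3* was 418 to 795 and 69.9 to 302, and *Gcg*, the glucagon gene of α cells, was 667 to 888 FPKM in Rip-cre ALDH- and 9533 to 35838 in Pdx-cre ALDH- libraries. The acinar *Ctrb1* reached 1223 FPKM in a Pdx-cre library, control ALDH+ replicate 2. In that library *Gcg* was 5822 FPKM, against 154 to 1016 in the other ALDH+ libraries. The Pdx-cre libraries thus go against a pure β-cell label. In 4 libraries the Y-linked *Uty* and *Kdm5d* were at 0 and *Xist* was 54.0 to 223 FPKM; in the other 11 *Xist* was at most 0.293. Those 4 were all Pdx-cre libraries (control ALDH- replicate 3, control ALDH+ replicate 2, and knockout replicate 5 of both fractions).

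Translation begins when initiation factors bring the initiator tRNA and the small ribosomal subunit to the capped end of an mRNA. eIF2 carries the tRNA, eIF3 holds the subunit, the eIF4 proteins bind and unwind the cap region, eIF1 and eIF1A guard the choice of start codon, and eIF5 and eIF5B trigger the joining of the large subunit. The elongation factors eEF1 and eEF2 then deliver each aminoacyl-tRNA and move the ribosome along. β cells, which make large amounts of proinsulin, rely on this machinery, and kinases of the *Eif2ak* family slow it under stress by phosphorylating eIF2. Several elongation and initiation factor mRNAs begin with a run of pyrimidines (5′ terminal oligopyrimidine, TOP), a feature through which mTOR controls their translation.

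RefSeq transcription starts (GRCm38.p6) were found for 51 of the 64 genes. The windows shown span 15 bases on each side of the annotated start, 5′ to 3′ on the gene's strand. They cover the genes called in the averaged ALDH comparison below, except *Eef1g*, *Eif3i* and *Eif6*, for which no window was available. Also shown are 3 further genes of the TOP list used below (*Eef1b2*, *Eef2* and *Eif4b*) and the X- and Y-linked pair of eIF2 genes. Capitals mark the longest run of C or T in the window.
*Eef1a1*, chr9:78481710-78481739, minus strand: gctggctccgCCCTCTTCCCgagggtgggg
*Eif3f*, chr7:108934400-108934429, plus strand: tctgttctaggCTCTCTCTCTTTCTCggca
*Eef1b2*, chr1:63176816-63176845, plus strand: tggacctgcagTTCCgccggaagtagccga
*Eef2*, chr10:81176616-81176645, plus strand: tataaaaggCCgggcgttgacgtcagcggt
*Eif4b*, chr15:102073758-102073787, plus strand: ggTCTTCCCgtcggacgccgcgccaccccc
*Eif1*, chr11:100319934-100319963, plus strand: gcgCTggcgtcacaggggcggctatataag
*Eif4h*, chr5:134639395-134639424, minus strand: gtgcgaCTTgcgatcaggcagcgcggcgga
*Eef1e1*, chr13:38659014-38659043, minus strand: tcaaggTCCTagctgtgcaggccccgcctc
*Eif2c3* (RefSeq *Ago3*), chr4:126429528-126429557, minus strand: cgggCTTCCgggggcgaccgggaaaagcga
*Eif2s3x*, chrX:94212637-94212666, minus strand: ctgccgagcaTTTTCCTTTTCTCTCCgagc
*Eif2s3y*, chrY:1010580-1010609, plus strand: gcggaggccacagccaCTTCCTTCTTTCgt
The run was 10 bases in *Eef1a1*, 15 in *Eif3f*, 16 in *Eif2s3x* and 12 in *Eif2s3y*, and 2 to 7 bases in the other 7. Of the 5 TOP-list genes shown, *Eef1a1* and *Eif3f* had the long runs, and *Eif4b*, *Eef1b2* and *Eef2* had runs of 7, 4 and 2 bases. A run of at least 8 bases stood in 13 of the 67 starts annotated for these genes (19.4%) and in 12% of all 32851 starts. An annotated start can lie some bases from the one used in these cells, so the windows are a description of the sequence only.

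*Eef1a1*, which encodes the factor that brings aminoacyl-tRNA to the ribosome, was the most abundant of the 64 genes at a mean of 1090 FPKM. *Eif5a* followed at 277.1 FPKM; its protein eases elongation through difficult peptide bonds. The next were *Eif1* at 254.6, the translocase gene *Eef2* at 219.9, *Eif4g2* at 218.6 and the eIF3 subunit gene *Eif3c* at 194.5. Among the stems, the 6 *Eef1* genes summed to 1374 FPKM on average, the 13 *Eif3* genes to 1087, the 13 *Eif4* genes to 861.4 and the 4 *Eif5* genes to 439.8. At the other end *Eif4e1b*, a germline relative of the cap-binding protein gene, was listed at 0 in all libraries, and *Eef1a2*, the muscle and neuron form of *Eef1a1*, did not pass 2.71 FPKM. *Eif2c4* (*Ago4*) did not pass 1.67 FPKM. These 3 genes were below the filter of a mean of at least 1 FPKM, and *Eif5* had 1 failed estimate, in control ALDH- replicate 1, so that 60 of the 64 were tested. *Eif3j* has near-identical gene copies, and its estimate carried a low-data mark in all libraries, so its values, which fell to 0.0096 FPKM in knockout ALDH- replicate 4 against 13.6 to 42.8 elsewhere, are uncertain.

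Paralogs were unequal in level. *Eif4a2*, a helicase gene of the cap complex, made up 42.3 to 73.6% of the summed FPKM of *Eif4a1* and *Eif4a2* (median 58.0%). *Eif4g2*, which encodes a scaffold that lacks the cap-protein binding site, made up 63.7 to 74.4% of the *Eif4g* family, with *Eif4g1* at a mean of 44.5 FPKM and *Eif4g3* at 52.3. *Eif4e*, the cap-binding protein gene, held 48.1 to 78.0% of the summed level of *Eif4e*, *Eif4e2* and *Eif4e3*. *Eif5a2* made up no more than 3.21% of *Eif5a* and *Eif5a2*. The eIF2 kinase genes were low: *Eif2ak1* (HRI) averaged 20.9 FPKM, *Eif2ak2* (PKR) 13.9, *Eif2ak3* (PERK) 10.5 and *Eif2ak4* (GCN2) 2.75. The spread over libraries of *Eif2ak2* (8.54 to 18.5 FPKM) and *Eif2ak3* (6.53 to 15.8) overlapped.

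The elongation factor genes *Eef1a1* and *Eef1g* and the eIF3 subunit genes *Eif3i* and *Eif3f* were called lower in ALDH+ than in ALDH- cells. These calls depended on single libraries, as given below. The summed FPKM of the 64 genes was 3803 to 4733 in the 7 ALDH+ libraries and 4914 to 5913 in the 8 ALDH- libraries, with no overlap. *Eef1a1* made up 17.1 to 21.8% of this sum in ALDH+ and 22.0 to 27.2% in ALDH- libraries. The 6 *Eef1* genes summed to 829.03 to 1300.4 FPKM in ALDH+ and 1335 to 2004 in ALDH- libraries, again apart. This sum mostly restates *Eef1a1*, which held 1090 of its mean of 1374 FPKM. The next in level, *Eef1g*, overlapped (88.6 to 143 FPKM in ALDH+ against 117 to 211 in ALDH-). The summed level of the 11 *Eif2* genes overlapped as well (256 to 318 against 248 to 323).

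**Figure D1:**
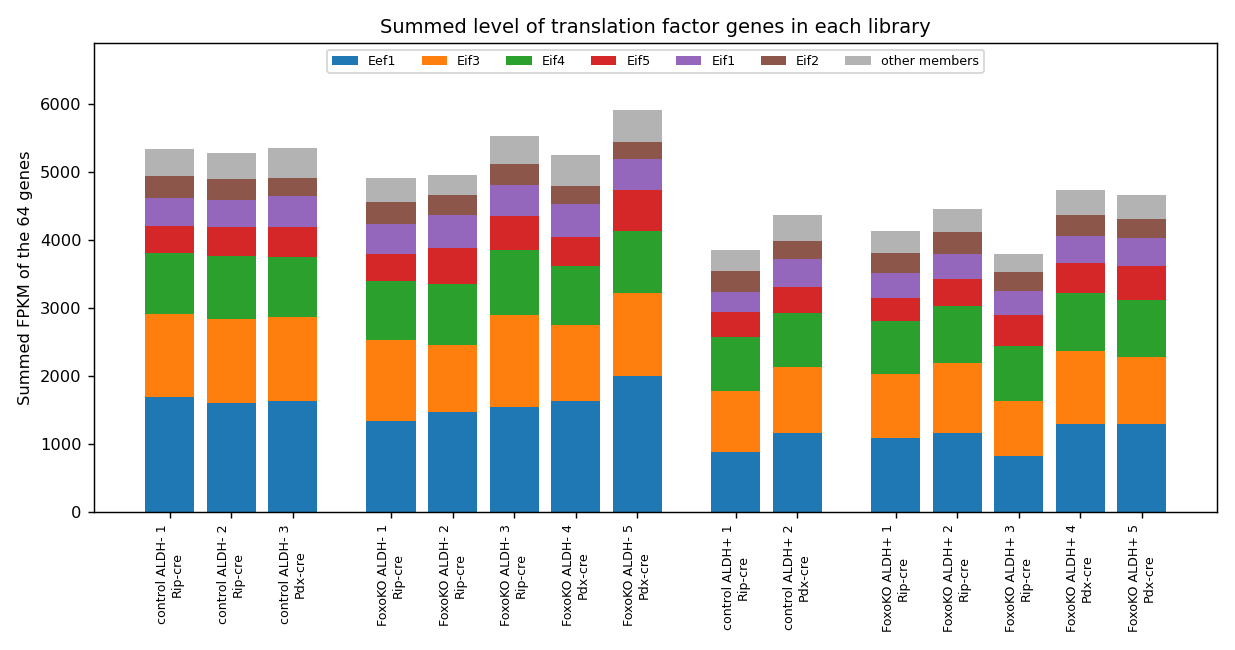
Summed FPKM of the 64 genes in each of the 15 libraries, stacked by symbol stem, with the group, replicate and cre driver under each bar. The 7 ALDH+ bars reach 3803 to 4733 and the 8 ALDH- bars 4914 to 5913.

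For ALDH+ against ALDH- cells averaged over genotypes, with cre driver in the model, limma with Benjamini-Hochberg adjustment over 11253 genes called 8 of the 60 genes lower, against 3.77% of all genes, and 1 higher, against 2.22%. In all, 42 of the 60 estimates were negative, with a median log2 difference of -0.19, where the median over all genes was -0.02. The 8 that fell were *Eef1g*, *Eef1a1*, *Eif3i*, *Eif1*, *Eif3f*, *Eif6*, *Eif4h* and *Eef1e1*, and the gene that rose was *Eif2c3*. All differences are on the scale log2(FPKM + 1) after rescaling, which understates changes of low genes.

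*Eef1a1* was 1381, 1261 and 1236 FPKM in control ALDH- replicates 1 to 3 and 684 and 906 in control ALDH+ replicates 1 and 2. In knockouts it was 1083, 1214, 1274, 1296 and 1610 FPKM in ALDH- replicates 1 to 5 and 847, 890, 651, 1032 and 987 in ALDH+ replicates 1 to 5. Every ALDH+ library was thus below every ALDH- library; of the 60 genes, only *Eef1a1* had this order, which 0.293% of all genes showed. No member had all 7 ALDH+ libraries above all 8 ALDH- libraries, an order seen in 0.418% of all genes. The log2 difference was -0.67 ± 0.13 (SE; adjusted p = 0.00795, limma), a level 0.628 times that of ALDH- cells.

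*Eef1g*, a subunit of the complex that recharges eEF1A with GTP, was 159, 166 and 191 FPKM in control ALDH- libraries and 88.6 and 123 in control ALDH+ libraries. In knockouts it was 124, 117, 143, 189 and 211 FPKM in ALDH- and 107, 120, 91.3, 143 and 135 in ALDH+ replicates 1 to 5. The knockout fractions overlapped. The control fractions did not, an order whose share over all genes was not counted. The Pdx-cre libraries were high in each fraction. The log2 difference was -0.59 ± 0.10 (adjusted p = 0.00588, limma). The other genes of this complex, *Eef1b2* (-0.35 ± 0.15, adjusted p = 0.20) and *Eef1d* (-0.43 ± 0.16, adjusted p = 0.14), did not pass the threshold. *Eef1e1*, which encodes a scaffold of the tRNA synthetase complex and not an elongation factor, was 20.8, 18.3 and 18.8 FPKM in control ALDH-, and 5.08 and 17.0 in control ALDH+ libraries. Its difference of -0.70 ± 0.19 (adjusted p = 0.0407) was -0.39 (adjusted p = 0.433) without control ALDH+ replicate 1. *Eef2* differed by -0.37 ± 0.13 (adjusted p = 0.11), with 138 to 303 FPKM in ALDH- and 153 to 216 in ALDH+ libraries; the lowest value of all was knockout ALDH- replicate 2, and without that library the difference was -0.43 (adjusted p = 0.0286). All 5 tested *Eef1* genes had negative estimates, with a median of -0.59.

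eIF3 is the largest initiation factor and has a core of 8 subunits (a, c, e, f, h, k, l and m) and peripheral subunits b, d, g, i and j. *Eif3i* was 186, 176 and 198 FPKM in control ALDH- and 93.9 and 121 in control ALDH+ libraries. In knockouts it was 170, 195, 233, 203 and 211 FPKM in ALDH- and 166, 148, 108, 203 and 157 in ALDH+ replicates 1 to 5. Only knockout ALDH+ replicate 4 reached the ALDH- range, and the log2 difference was -0.63 ± 0.12 (adjusted p = 0.00934, limma). *Eif3f* was 54.7, 48.1 and 62.0 FPKM in control ALDH-, 31.2 and 36.5 in control ALDH+, 37.9 to 69.3 (median 55.0) in knockout ALDH- and 25.8 to 47.4 (median 41.4) in knockout ALDH+ libraries. Its difference was -0.60 ± 0.14 (adjusted p = 0.021). Of the other 11 subunits none passed the threshold: 9 had negative estimates, among them *Eif3k* (-0.60 ± 0.24, adjusted p = 0.15), *Eif3e* (-0.41 ± 0.14, adjusted p = 0.095) and *Eif3c* (-0.31 ± 0.09, adjusted p = 0.060), and *Eif3a* (0.18 ± 0.10) and *Eif3j* were positive. The median was -0.41 over the 8 core subunits, of which 1 was called, and -0.22 over the 5 peripheral subunits, of which 1 was called. The peripheral median includes *Eif3j*, whose values are uncertain, and the other 4 peripheral estimates were negative. *Eif3a*, whose protein is the scaffold of the core, was 83.2 to 128 FPKM in ALDH- and 109 to 127 in ALDH+ libraries.

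*Eif1*, whose product keeps the scanning ribosome open until the start codon is met, was 269, 240 and 295 FPKM in control ALDH- and 160 and 246 in control ALDH+ libraries. In knockouts it was 277 to 334 FPKM (median 292) in ALDH- and 199 to 242 (median 212) in ALDH+ libraries. These did not overlap, an order whose share over all genes was not counted within knockouts. The log2 difference was -0.48 ± 0.11 (adjusted p = 0.0187, limma). The related *Eif1b* (-0.20 ± 0.15), *Eif1a* (-0.09 ± 0.13) and *Eif1ax* (-0.19 ± 0.17) had adjusted p-values of 0.50, 0.75 and 0.60. *Eif6*, which keeps the large subunit from joining too early, was 48.1, 35.1 and 67.8 FPKM in control ALDH- and 18.3 and 51.1 in control ALDH+ libraries. In knockouts it ran from 48.4 to 127 FPKM (median 82.7) in ALDH- and from 35.6 to 91.2 (median 43.1) in ALDH+ libraries. The fractions overlapped in raw values, and the difference with cre driver in the model was -0.68 ± 0.17 (adjusted p = 0.0294).

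*Eif4h*, a helper of the eIF4A helicase, was 63.5, 52.8 and 67.6 FPKM in control ALDH-, 36.8 and 52.6 in control ALDH+, 43.0 to 71.0 in knockout ALDH- and 36.8 to 50.9 in knockout ALDH+ libraries, a difference of -0.49 ± 0.13 (adjusted p = 0.0393, limma). The other helper, *Eif4b*, differed by -0.32 ± 0.12 (adjusted p = 0.13). None of the other *Eif4* genes passed: *Eif4a1* differed by -0.42 ± 0.16 (adjusted p = 0.14), *Eif4a2* by -0.14 ± 0.16, *Eif4a3* by -0.20 ± 0.16, *Eif4e* by -0.14 ± 0.14, *Eif4e2* by 0.20 ± 0.20, *Eif4e3* by 0.20 ± 0.19, *Eif4g1* by 0.09 ± 0.12, *Eif4g2* by -0.16 ± 0.11 and *Eif4g3* by 0.33 ± 0.15. *Eif5a* differed by -0.42 ± 0.16 (adjusted p = 0.14), *Eif5a2* by -0.13 ± 0.26 and *Eif5b* by 0.18 ± 0.13. With its failed estimate set to missing, so that control ALDH- rested on 2 libraries, *Eif5* differed by 0.20 ± 0.11 (adjusted p = 0.32).

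No subunit of eIF2 or of its exchange factor eIF2B was called. The 11 *Eif2* genes had a median of -0.16, with *Eif2s1* at 0.02 ± 0.17, *Eif2s2* at -0.16 ± 0.12 and *Eif2a*, which encodes a separate tRNA carrier, at 0.22 ± 0.12 (adjusted p = 0.34). The 4 eIF2 kinase genes all had positive estimates, from 0.13 ± 0.18 for *Eif2ak1* to 0.28 ± 0.15 for *Eif2ak2* (adjusted p = 0.31), and none passed. *Eefsec*, the selenocysteine elongation factor gene, differed by -0.69 ± 0.35 (adjusted p = 0.28), and the eEF2 kinase gene *Eef2k* by -0.19 ± 0.28.

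*Eif2c3* carries a factor-like symbol in these tables, but it is an Argonaute (*Ago3*), a protein that loads small RNAs. It was 6.58, 3.55 and 4.28 FPKM in control ALDH- and 9.15 and 7.11 in control ALDH+ libraries. In knockouts it was 7.28, 4.76, 4.62, 4.19 and 2.42 FPKM in ALDH- and 8.34, 7.30, 11.9, 6.60 and 11.3 in ALDH+ replicates 1 to 5. The difference was 0.79 ± 0.21 (adjusted p = 0.0411, limma), and 1 ALDH- library, knockout replicate 1, lay within the ALDH+ range. *Eif2c2* (*Ago2*) differed by 0.33 ± 0.12 (adjusted p = 0.13) and *Eif2c1* (*Ago1*) by -0.08 ± 0.19.

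**Figure D2:**
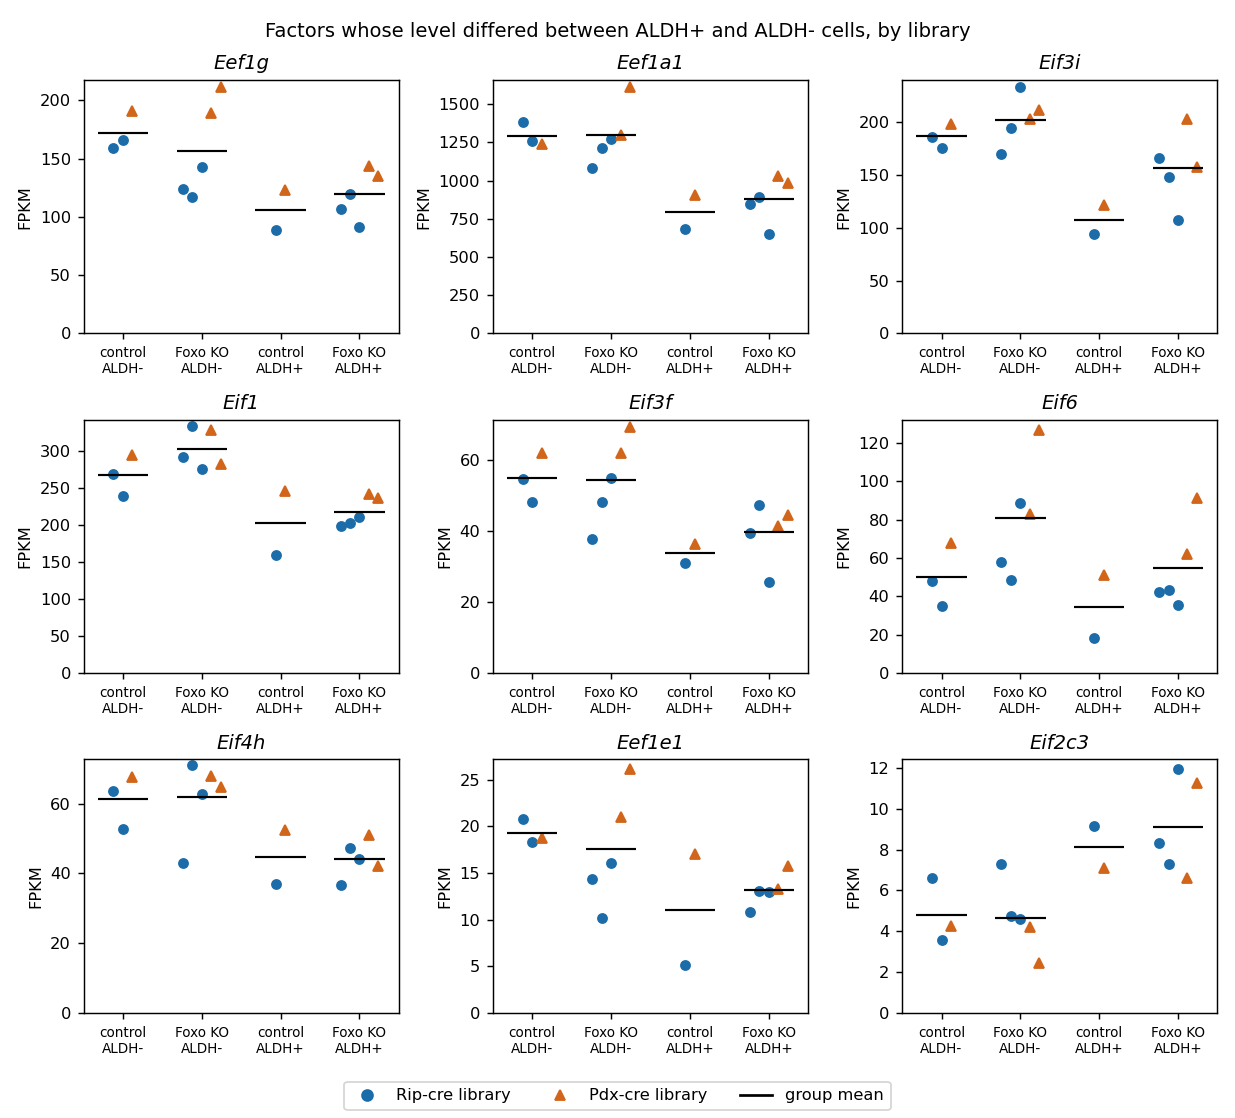
FPKM in each library (linear axes from 0) of the 9 genes called between ALDH+ and ALDH- cells, by group, with Rip-cre libraries as circles, Pdx-cre libraries as triangles and group means as lines. *Eef1a1* separates the fractions fully (651 to 1032 against 1083 to 1610 FPKM), and *Eif2c3* is the gene that is higher in ALDH+ cells.

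**Figure D3:**
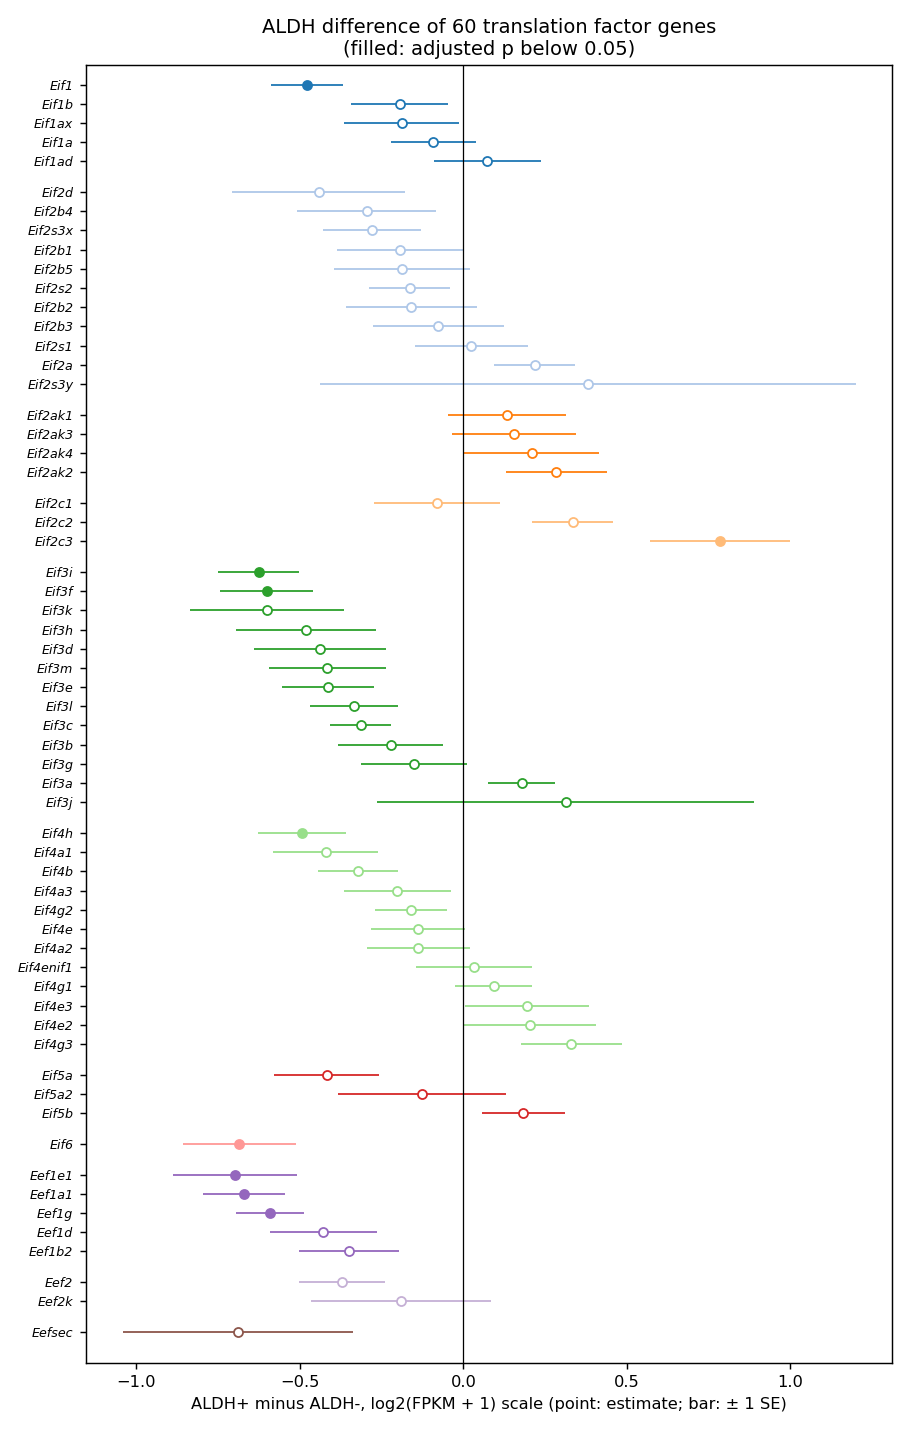
ALDH+ minus ALDH- difference of the 60 tested genes on the log2(FPKM + 1) scale, grouped by stem, with points as estimates, bars as 1 SE and filled points for adjusted p below 0.05. The *Eef1* genes lie left of 0 (median -0.59) and the *Eif2ak* genes right of it (median 0.18).

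The calls depended on single libraries. Without control ALDH+ replicate 1, none of the 60 genes was called (13 had an unadjusted p below 0.05), and over all genes limma's calls fell from 674 to 3. The number called was 3 without control ALDH- replicate 1, 4 without control ALDH- replicate 3, 5 without knockout ALDH- replicate 5 and 6 to 11 without any 1 of the other 11. Over all genes, limma called 366 of 11268 without control ALDH- replicate 1 and 416 of 11233 without control ALDH- replicate 3. It called 543 of 11247 without knockout ALDH- replicate 5. Genes with an unadjusted p below 0.05 were not counted over all genes in these fits. Without control ALDH+ replicate 1, control ALDH+ holds 1 library, assumed to vary like the others. The estimates without it were -0.59 for *Eef1g* (adjusted p = 0.108), -0.62 for *Eef1a1* (adjusted p = 0.115), -0.58 for *Eif3i* (adjusted p = 0.124), -0.63 for *Eif3f* (adjusted p = 0.139) and 0.78 for *Eif2c3* (adjusted p = 0.224). Those of *Eif1* (-0.35), *Eif6* (-0.51), *Eif4h* (-0.41) and, as above, *Eef1e1* shrank most. The estimates of *Eef1a1* and *Eif3i* shrank less, and that of *Eif3f* grew. Within drivers none of the 60 was called either, against 156 of 11113 genes in Rip-cre and 4 of 11297 in Pdx-cre libraries. Control ALDH+ is 1 library in the Rip-cre set, and both control fractions are 1 library each in the Pdx-cre set. In the 9 Rip-cre libraries *Eef1a1* differed by -0.76, *Eef1g* by -0.56 and *Eif3i* by -0.71 (adjusted p = 0.0678, 0.0861 and 0.0801), and in the 6 Pdx-cre libraries by -0.54, -0.63 and -0.51 (adjusted p = 0.852, 0.779 and 0.819).

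Other measures moved with the ALDH split, and 2 Rip-cre libraries, control ALDH+ replicate 1 and knockout ALDH+ replicate 3, stood apart in several of them. They had the lowest summed factor levels (3856 and 3803 FPKM), the highest nuclear RNA sums (4896 and 4694 FPKM), the steepest slopes on transcript length (0.181 and 0.164, the next being 0.0515) and the lowest *Iapp* (33196 and 42520 FPKM, against at least 69597 elsewhere). Without both, none of the 60 genes was called (15 had an unadjusted p below 0.05, limma) and 3 of 11221 genes were; *Eef1a1* was -0.57 (adjusted p = 0.136), *Eef1g* -0.56 (adjusted p = 0.127) and *Eif3i* -0.51 (adjusted p = 0.138).

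The nuclear RNAs *Malat1*, *Neat1* and *Meg3* summed to 2042 to 4896 FPKM in ALDH+ and 271 to 1607 in ALDH- libraries, without overlap, and all 3 were called higher (2.44, 2.02 and 2.15 on the log2 scale). The slope of a library's log2 values on transcript length, per doubling of length, was -0.0486 to 0.181 in ALDH+ and -0.145 to 0.0465 in ALDH- libraries, and across the 60 genes longer transcripts had higher ALDH+ minus ALDH- differences (Pearson r = 0.63, Spearman rho = 0.63; r = 0.27 and rho = 0.38 over 11137 genes), a description across genes that share libraries. The called gene that rose had the longest annotated transcript of the 64 (*Eif2c3*, 15600 bases), and the longest transcripts of those that fell were shorter (1322 bases for *Eif1* to 2726 for *Eif4h*). With each library's length trend removed, *Eef1g* (-0.42), *Eef1a1* (-0.49) and *Eif3i* (-0.52) were called and the other 6 were not, against 243 of 11137 genes called. *Eif1* was then -0.19 (adjusted p = 0.457, limma). The 6 usable β-cell markers summed to 34270 to 98360 FPKM in ALDH+ and 82260 to 126100 in ALDH- libraries, a sum made up almost wholly of *Iapp*. Of the 6 differences 3 were negative and 3 positive (median 0.0229), and none was called. The 7 markers of α, δ and PP cells summed to 1031 to 13250 FPKM in ALDH+ and 2068 to 67670 in ALDH- libraries, and the 6 that were tested had negative differences, of which *Ppy* (-2.10) and *Pyy* (-2.07) were called. The 7 acinar and duct markers summed to 0.0576 to 1352 FPKM in ALDH+ and 0.143 to 375 in ALDH- libraries, with 6 of 6 tested differences positive and none called. The 7 immune and stromal markers summed to 21.0 to 75.4 FPKM in ALDH+ and 21.6 to 160 in ALDH- libraries; *Ptprc* and *Kdr* did not pass 0.0214 FPKM, and neither of the 2 tested, *Cd68* and *Cd74*, was called. The part of these in the factor differences was not tested. In sorted bulk samples, fewer cells of a type and less RNA per cell cannot be told apart.

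Within controls, 1 of the 60 genes was called lower, *Eef1g* (-0.82 ± 0.17, adjusted p = 0.0359), against 0.755% of all genes called lower, and none higher, against 0.462%. Leaving out any of the 5 control libraries ended that call (adjusted p up to 0.625). *Eif3i* (-0.87 ± 0.21, adjusted p = 0.0515) and *Eef1a1* (-0.79 ± 0.21, adjusted p = 0.0752) were next. Within Foxo knockouts limma called none of the 60 and 0.0178% of all genes. At an unadjusted p below 0.05 were 14 of the 60 (3 higher and 11 lower), and of 11253 genes 646 were higher and 826 lower. *Eef1a1* differed by -0.55 ± 0.14 (adjusted p = 0.18, limma), *Eif1* by -0.46 ± 0.12 (adjusted p = 0.19) and *Eif2c3* by 0.87 ± 0.24 (adjusted p = 0.19). The control and knockout differences come from separate libraries but share the cre term and the estimate of spread. They had the same sign in 46 of the 60 genes (76.7%; 66.0% of all genes), with 31 lower in both and 15 higher in both.

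**Figure D4:**
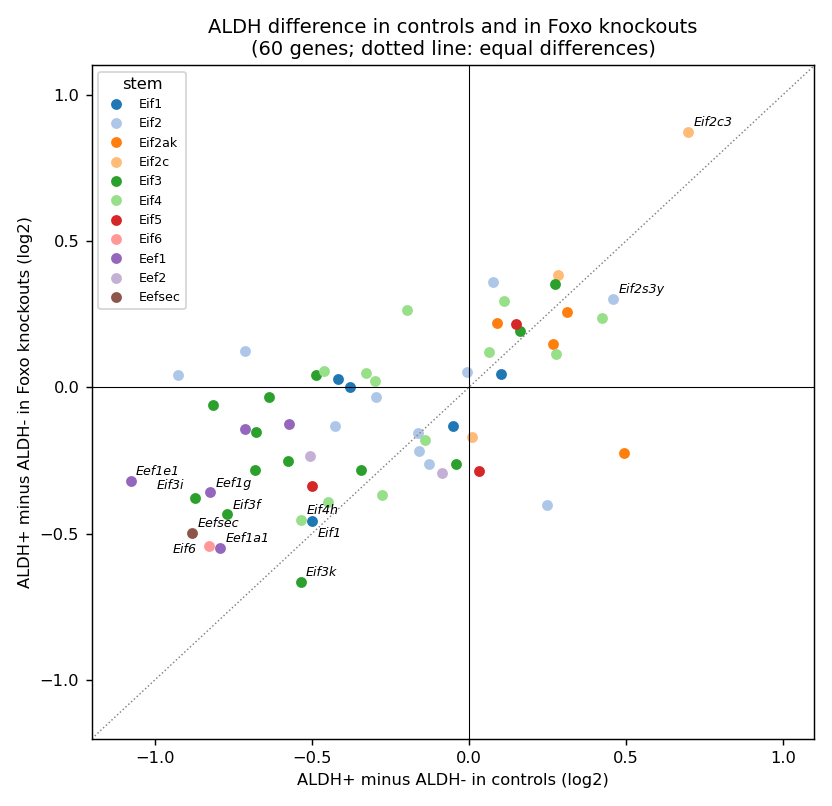
ALDH+ minus ALDH- log2 difference in Foxo knockouts (vertical axis) against that in controls (horizontal axis) for the 60 genes, coloured by stem, with a dotted line of equal differences. Of the 60 points, 31 are lower in both genotypes and 15 higher in both.

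The genotype by ALDH interaction was called for no gene (0.0% of 11253 genes), so a difference of the ALDH effect between genotypes was not detected. Of the 60, *Eef1g* (0.47 ± 0.21) and *Eif3l* (0.60 ± 0.27) had an unadjusted p below 0.05 (both adjusted p = 0.998, limma). At that level 2 of the 60 compare with 299 positive and 177 negative values among the 11253 genes. Foxo knockout against control in ALDH- cells gave no call among the 60, against 0.0178% of all genes. At an unadjusted p below 0.05 was 1 of the 60, *Eif6* (0.57 ± 0.23, adjusted p = 0.80, limma), while 308 of 11253 genes were higher and 342 lower. *Eif6* averaged 50.4 ± 16.5 FPKM (SD, n = 3) in control and 80.9 ± 30.6 (SD, n = 5) in knockout ALDH- libraries. In ALDH+ cells none of the 60 was called, with 0.0% of all genes. At an unadjusted p below 0.05 were 4 of the 60, a number that did not stand out. Of 11253 genes, 456 were higher and 287 lower at that level. The 4 were *Eif6* (0.86 ± 0.26, adjusted p = 0.58, limma), *Eif3i* (0.58 ± 0.19, adjusted p = 0.64), *Eif1ax* (0.59 ± 0.26, adjusted p = 0.75) and *Eif2ak1* (-0.72 ± 0.27, adjusted p = 0.67). *Eif2ak1*, the heme-regulated eIF2 kinase gene, was 25.5 and 33.4 FPKM in control ALDH+ libraries and 14.8 to 19.7 in knockout ALDH+ libraries. *Eef1a1* averaged 1292 ± 77.3 FPKM (SD, n = 3) in control ALDH- and 1295 ± 194 (SD, n = 5) in knockout ALDH- libraries. Both genotype comparisons use the same knockout or control libraries as the ALDH comparisons.

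Between drivers, Pdx-cre libraries against Rip-cre libraries, 3 of the 60 genes were called higher, against 5.68% of all genes, and 1 lower, against 4.05%. *Eif6* (0.91 ± 0.16, adjusted p = 0.00289), *Eef1g* (0.51 ± 0.10, adjusted p = 0.00461) and *Eif4a1* (0.57 ± 0.15, adjusted p = 0.0266) were higher in Pdx-cre libraries. *Eif6* was 51.1 to 127 FPKM in the 6 Pdx-cre and 18.3 to 88.7 in the 9 Rip-cre libraries, and *Eif4a1* was 117 to 225 and 75.1 to 168. *Eif2s3y* was lower (-3.70 ± 0.78, adjusted p = 0.00766, limma). The difference between drivers coincided with other differences. Of the 6 Pdx-cre libraries 4 lacked Y transcripts and of the 9 Rip-cre libraries none did. With a term for the libraries without Y transcripts, limma called none of the 60 and 56 of 11253 genes. *Eif6* was then 0.47 (adjusted p = 0.36, limma) and *Eef1g* 0.46 (adjusted p = 0.211). The α, δ and PP markers summed to 20780 to 67670 FPKM in Pdx-cre ALDH- and 2068 to 3934 in Rip-cre ALDH- libraries, and 4 of 6 of them were called higher in Pdx-cre. Of the β-cell markers 5 of 6 were called lower (median -1.13), of the acinar and duct markers 2 of 6 higher (all 6 positive, median 1.75), and of the immune and stromal markers 2 of 2 higher (median 1.63). The part of these cells was not tested. The cre driver by ALDH interaction was called for no gene (0.0% of all genes), with 2 of the 60, *Eif2ak1* and *Eif3d*, at an unadjusted p below 0.05. Of 11253 genes, 265 had positive and 246 negative values at that level.

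*Eif2s3x* and *Eif2s3y* encode the X- and Y-linked forms of the eIF2 gamma subunit. *Eif2s3y* was 22.8, 36.8 and 0 FPKM in control ALDH- replicates 1 to 3 and 72.9 and 0 in control ALDH+ replicates 1 and 2. In knockouts it was 41.9, 45.2, 40.3, 28.8 and 0 FPKM in ALDH- and 48.4, 59.6, 37.6, 51.3 and 0.0607 in ALDH+ replicates 1 to 5, so it was at or near 0 in the 4 libraries without other Y transcripts. *Eif2s3x* was 49.1 to 55.9 FPKM in those 4 libraries and 25.9 to 45.2 in the other 11. They did not overlap, an order whose share over all genes was not counted. The 4, all Pdx-cre libraries, were set apart by Y transcripts, among them *Eif2s3y*, so this is a description. *Eif2s3y* made up 33.5 to 73.8% of the summed FPKM of the pair in the 11 libraries with Y transcripts (median 55.3%). The sum of both genes was 66.4 to 98.7 FPKM in those 11 and 49.1 to 55.9 in the 4 without. In the 11 libraries with Y transcripts, ALDH+ minus ALDH- was 0.83 ± 0.21 for *Eif2s3y* (adjusted p = 0.0670) and -0.41 ± 0.14 for *Eif2s3x* (adjusted p = 0.15). *Eif2s3x* and *Eif2s3y* are similar in sequence, and reads that fit both could be split between them.

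**Figure D5:**
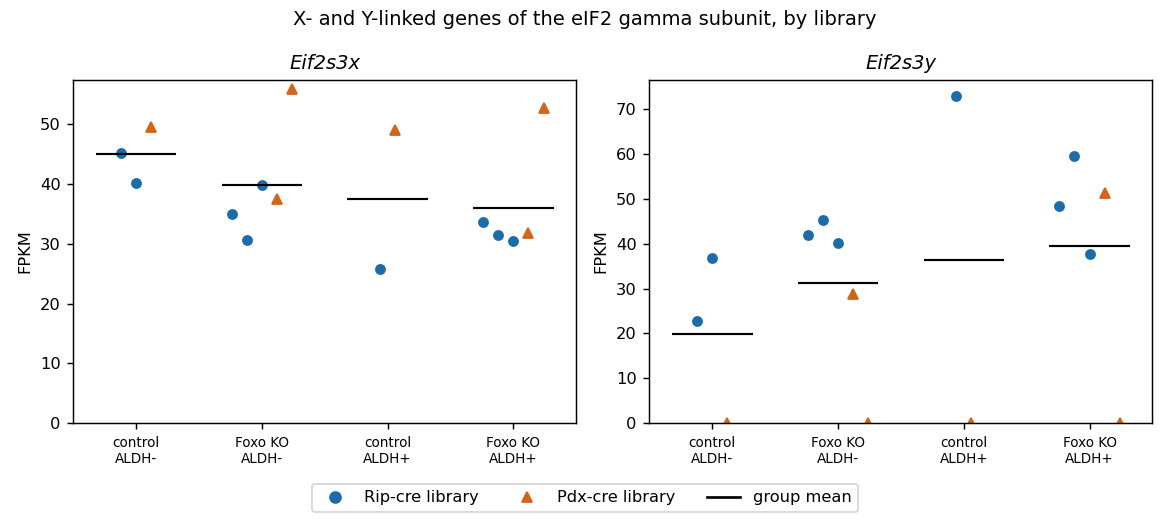
FPKM of *Eif2s3x* (left) and *Eif2s3y* (right) in each library by group, with Rip-cre libraries as circles, Pdx-cre libraries as triangles and group means as lines. *Eif2s3y* is at 0 to 0.0607 FPKM in 4 Pdx-cre libraries, which are the 4 highest for *Eif2s3x*.

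In the averaged ALDH comparison, calls in lists of related genes are read against 3.77% of all genes called lower and 2.22% higher. No list was tested as a set, and lists this small cannot be set apart from that share. All 9 factor genes of the TOP list (*Eef1a1*, *Eef1b2*, *Eef1d*, *Eef1g*, *Eef2*, *Eif3e*, *Eif3f*, *Eif3h* and *Eif4b*) had negative estimates with a median of -0.43. The 3 called lower, *Eef1a1*, *Eef1g* and *Eif3f*, are calls already given above. Of 6 other TOP genes, 1 was called lower, *Gnb2l1* (-0.58), which encodes a ribosomal scaffold, and *Tpt1* (-0.49, adjusted p = 0.061, limma) was not. Of 22 tRNA synthetase genes, 2 were called lower, *Aars* (-0.46, adjusted p = 0.0318) and *Farsb* (-0.45, adjusted p = 0.0350), which charge alanine and phenylalanine tRNA; 20 estimates were negative, with a median of -0.22. Of 10 genes that respond to eIF2 phosphorylation, 1 was called lower, the transcription factor *Atf5* (-0.67, adjusted p = 0.0132), while *Atf4* (-0.46, adjusted p = 0.0940) and *Asns* (-0.43, adjusted p = 0.0660) were not. None of 20 regulators of initiation was called; the eIF4E repressor *Eif4ebp1* differed by -0.36 (adjusted p = 0.16), and the list's median was -0.10. None of 4 termination and recycling genes was called, with *Etf1*, the release factor gene, at -0.28 (adjusted p = 0.15). Of 10 mitochondrial translation factors, 1 was called higher, *Guf1* (0.74, adjusted p = 0.0157), and the elongation factor *Tufm* differed by -0.47 (adjusted p = 0.29).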

How the data were processed

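The deposited tables, 1 per library in the layout of Cufflinks, hold FPKM with confidence bounds and a status; per the labels and the submitters' processing notes, reads were handled with bcl2fastq 1.8.4 and TopHat2 2.0.4 against mm9, and the Cufflinks version and annotation are not given in the sources used here. Symbols listed more than once (248) and genes marked FAIL or HIDATA in at least 1 library were left out, which left 22924 genes. FPKM were rescaled by a trimmed mean of M-values (30% and 5% trimmed), 1 was added, and log2 values of the 11253 genes with a mean of at least 1 were fitted with limma 3.58.1 (R 4.3.3, trended variance, 4 groups plus cre driver, two-sided, adjusted by Benjamini-Hochberg, threshold 0.05). The fit was tested on simulated data. Fragment numbers were worked out from the interval widths of entries with status OK, taken as 2 standard errors, and cover counting error only.

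Genes named were the 3 most abundant of each stem, every gene past the threshold, the 10 with the smallest p in the averaged ALDH comparison, and paralog sets; others were named after their values were seen. The genes, lists and tests were chosen with earlier results of these data known. Y transcripts were called absent below 1 FPKM. Alternatives were another pseudocount, filter, scaling, length correction, model, driver, block and left-out library. Pairing by replicate number was checked through shared deviations, which were not found, and the check cannot exclude it.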

Additional observations from a re-analysis of the deposited data

Results flagged for a closer look

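In the groups of 5 knockout libraries, the 41 named genes were screened for a library whose gap to its nearest neighbour exceeded Dixon's 95% critical value. Of 82 groups, 3 stood out, where chance gives about 1 in 20. *Eif2s3x* was 52.7 FPKM in knockout ALDH+ replicate 5, a library without Y transcripts, against 30.5 to 33.6 in the other 4. *Eefsec* was 15.4 FPKM in knockout ALDH- replicate 2, against 2.18 to 5.32. *Eef1a2* was 0.210 FPKM in knockout ALDH+ replicate 4, against 0 to 0.0529, all below the filter.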

How the results depend on the processing

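Calls depended on the model and on single libraries; directions of the called genes did not change under any alternative run. Over all genes, the averaged ALDH comparison called 674 of 11253 as reported and 243 of 11137 with the length trend removed. It called 262 of 11253 with a replicate block within cre driver, 185 without cre driver and 22 with a replicate block on equal numbers. At an unadjusted p below 0.05 as reported (limma), 3 of the 60 were higher and 21 lower, against 1000 and 1339 of 11253 genes. That all-gene count was not made for the alternatives. Among the 60, the averaged comparison called 9 genes as reported. The number was 3 with the length trend removed, 4 with a replicate block within cre driver and 5 in libraries with Y transcripts only. It was 0 without cre driver in the model, in Rip-cre libraries only, in Pdx-cre libraries only and with a replicate block on equal numbers (14, 15, 4 and 13 with an unadjusted p below 0.05, limma), and 0 with both ALDH+ libraries that stood apart left out (15 with an unadjusted p below 0.05). It was 0 to 11 when each library was left out: 0 without control ALDH+ replicate 1, 3 without control ALDH- replicate 1, 4 without control ALDH- replicate 3 and 5 without knockout ALDH- replicate 5. In controls, the 1 call became 2 at a mean of at least 5 FPKM, 2 with the compared groups only and 5 with array weights, and 0 with the length trend removed, without cre driver, in either driver alone, with either block, with those 2 libraries left out and in libraries with Y transcripts only (0 to 3 with a library left out: 2 without knockout ALDH- replicate 3 or 4, and 3 without knockout ALDH+ replicate 3). Between drivers, the 4 calls became 7 at a mean of at least 5 FPKM, 7 with median of ratios scaling, 8 with array weights and 0 with either treatment of libraries without Y transcripts (3 to 7 with a library left out, 7 without knockout ALDH- replicate 4). In libraries with Y transcripts only, 1 gene, *Eif3j*, was called in the cre driver by ALDH interaction. Over all genes, the driver comparison called 1027 of 8043 at a mean of at least 5 FPKM and 1091 of 11254 with median of ratios scaling. It called 1260 of 11253 with array weights and 56 of 11253 with a term for libraries without Y transcripts. In controls, calls over all genes were 171 of 8043 at that mean and 444 of 11269 with the compared groups only. With array weights they were 563 of 11253. No knockout, genotype or other interaction call appeared among the 60 under any alternative.

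Of the named genes, only some that were not called changed sign. With the length trend removed, *Eif1b* was 0.18, *Eif2c2* -0.0066, *Eif4a3* 0.0397, *Eif4g1* -0.0148 and *Eif5b* -0.0078. In Rip-cre libraries only, *Eif2ak1* was -0.20, *Eif2ak3* -0.0529 and *Eif2c1* 0.24; in Pdx-cre libraries only, *Eif4e2* was -0.0499 and *Eif4e3* -0.0565; in libraries with Y transcripts only, *Eif2ak1* was -0.0699, *Eif2ak3* -0.0487 and *Eif2c1* 0.23. With the replicate block on equal numbers, *Eif2s3y* was -0.74. With both ALDH+ libraries that stood apart left out, *Eef2k* was 0.0791, *Eif1a* 0.0668, *Eif2s3y* -0.262, *Eif4a2* 0.00155, *Eif4a3* 0.0246 and *Eif4e3* -0.111. With a library left out, *Eif1a* ran from -0.27 to 0.10, *Eif2ak1* from -0.0205 to 0.30, *Eif2c1* from -0.36 to 0.17, *Eif2s3y* from -0.37 to 1.06, *Eif4a3* from -0.40 to 0.0143 and *Eif4e3* from -0.0824 to 0.45. The cause was not tested. The 2 treatments of libraries without Y transcripts, leaving out both libraries that stood apart and failed estimates as missing were added after seeing the data. Equal replicate numbers did not deviate together in knockouts (correlations of -0.044 to 0.070, none best with its own number). That does not exclude shared animals behind equal numbers. Knockout replicate 5 lacked Y transcripts in both fractions, with *Ctrb1* at 331 FPKM in ALDH- and 601 in ALDH+. In controls the libraries without Y transcripts had unequal numbers (ALDH- replicate 3 and ALDH+ replicate 2). The block is thus an alternative and not a known pairing. Control ALDH+ had 2 libraries, which limits what controls can show. Of these, replicate 1 was among the libraries that stood apart, and replicate 2 had the highest *Ctrb1* of all (1223 FPKM).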
